A study of Mus musculus with 34 samples.

Results

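Aggregates of mouse embryonic stem cells at day 5 of a differentiation course were compared with the epiblast-like cells (EpiLC) of day 2 from which they were grown. The comparison used 8 of the 34 libraries, chosen by the day in the labels: 3 of day 5 and 5 of day 2. All cells were of CBMS1, an embryonic stem cell line of strain background CBA/MsM, kept in 2i/LIF medium before the course. No genetic change or drug treatment set the groups apart. Both groups had passed through 2 days of conversion to EpiLC, a culture state close to the epiblast of the early postimplantation embryo. The day 5 cells had then spent 3 days as floating aggregates, called embryoid bodies (EB), in plain GK15 medium with no added factor, a regime the labels liken to a neural induction method. The line is 1 line, so the values describe it alone.

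In the mouse embryo the primitive streak forms at the posterior side of the epiblast. Nodal, Wnt and bone morphogenetic protein (BMP) signals induce it, and the T-box factors Eomes and T (Brachyury) are expressed in it. Cells that leave the streak become mesoderm and endoderm, while its anterior end gives rise to the node and notochord, which express Foxa2, Noto and Shh. Epiblast cells that do not pass through the streak keep an epithelial form and give rise to neurectoderm.

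Bulk RNA was sequenced, and the unit is FPKM, in which fragment numbers are divided by the length of the transcript and the size of the library, so that levels may be compared between genes. The number of fragments was unknown. Relative depth, read from the steps between low FPKM values, ran from 0.84 to 1.17 among the 8 libraries. Between 11383 and 11591 genes reached 1 FPKM at day 2 and between 11798 and 12053 at day 5. The cell type field of the labels named another stage than the title in 3 of the 8 libraries, replicates 1 and 3 of day 2 and replicate 1 of day 5, and the titles were followed. Across genes, Pearson r was 0.982 to 0.990 between day 2 libraries, 0.977 to 0.985 between day 5 libraries and 0.891 to 0.910 between the groups. The labels call the libraries biological replicates, and the dates in their titles differ within each of the 2 groups. By these dates the libraries of a group came from separately dated runs of the course. Whether the runs began from separate stem cell cultures is not stated. The p-values and standard errors measure spread between libraries, which for these 8 are dated runs of the same line. That spread was pooled within the groups of all 34 libraries, with the other days and cell types included. It is not the spread of the 8 libraries alone. Aggregates are mixtures, and in bulk RNA a change in the number of cells of a type cannot be told apart from a change in RNA per cell.

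Differences were taken on the scale of log2(FPKM + 1), which understates the change of low genes, and a gene passed at an adjusted p under 0.05 (limma, Benjamini-Hochberg over 14595 genes) with a difference of at least 1. Of these genes, 2678 (18.3%) passed, 1546 (10.6%) higher and 1132 (7.76%) lower at day 5. List counts below are to be set beside these shares. The libraries of the groups did not overlap in 54% of the genes tested. The median difference over all genes tested was 0.01. Rises and falls were ranked among genes that passed, whose libraries did not overlap between the groups and whose mean was at least 10 FPKM in 1 group. Only entries with 1 symbol, found in no other entry, were ranked. The 10 largest rises by this rule were those of T, Cer1, Aplnr, Gal, Spink1, Noto, Arg1, Foxa2, Tmem176b and Gm15284. The 10 largest falls were those of Utf1, Dnmt3l, Snora78, Tmem54, Tex19.1, Taf7l, Rpl10l, Cox7b2, Mt3 and Platr10. Within the 3 culture courses read from the dates in the titles, each with 1 library per day, 2673 of the 2678 genes moved the same way in each course. The genes were called with these same libraries, so such agreement was largely set by their choice. Of the 2678, 1813 moved the same way by at least 1 in each course. With the libraries of project A alone, 1 of day 5 and 3 of day 2, 2607 genes passed, and with those of project B alone, 2 of each day, 2835 passed.

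**Figure D1:**
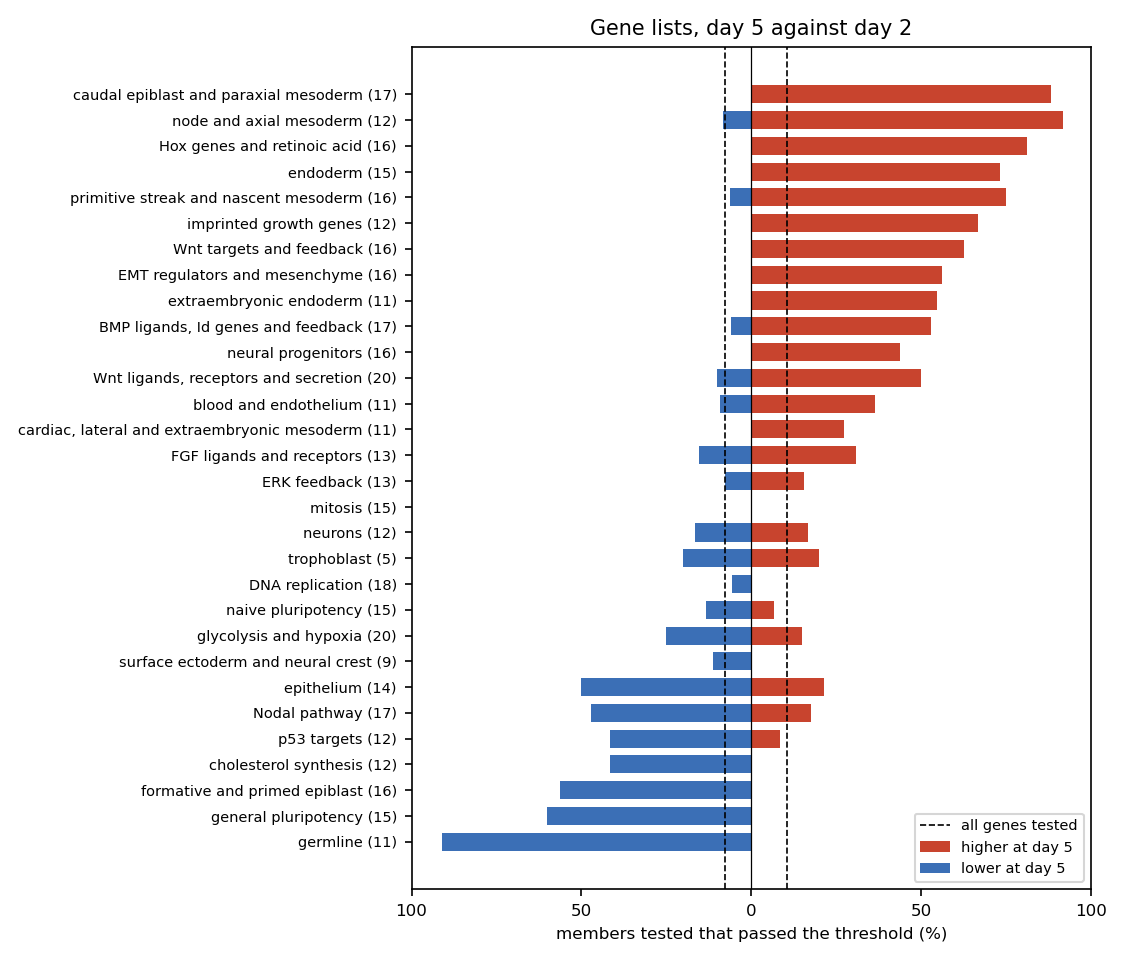
Share of the members tested that were higher (right, red) or lower (left, blue) at day 5 than at day 2, for 30 gene lists, with the number of members tested in brackets. The dashed lines mark the shares over all 14595 genes, 10.6% higher and 7.76% lower, while the node list stood at 11 of 12 higher and the germline list at 10 of 11 lower. Some lists include members that passed the filter on low values only through the day 5 libraries, as given in the text.

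Genes of the primitive streak and nascent mesoderm were higher at day 5, T most of all. Of 17 genes listed, 16 were tested, 12 were higher and 1 was lower, with a median difference of 2.97. Evx1, Wnt3a and Msgn1 passed the filter on low values only through the day 5 libraries. They are among the 12, and their calls are not separate support. T, the T-box factor that marks the streak and the notochord (chr17:8627288-8635361 in mm9), was at 2.68, 1.4, 3.81, 2.40 and 2.35 FPKM in the day 2 libraries and at 388, 621 and 575 FPKM in those of day 5. The groups were far apart in every library, and the difference was 7.23 ± 0.37 (standard error, SE; adjusted p = 1.68e-16). Mixl1, a homeobox gene of the streak, rose from 0.922 ± 0.293 FPKM (SD, n = 5) to 15.4 ± 5.15 (n = 3). Sp5, a zinc finger target of Wnt signals, stood at 0.0957 to 0.231 FPKM at day 2 and at 26.3, 37.8 and 39.4 FPKM at day 5, a difference of 4.90 ± 0.35 (adjusted p = 3.35e-13).

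Genes of the anterior streak and the mesoderm leaving it were among the 12. Gsc, the homeobox gene of the organizer, was at 0.262 ± 0.222 FPKM at day 2 and at 14.6, 27 and 14.2 FPKM at day 5 (difference 3.91 ± 0.33). Lhx1, which the organizer also expresses, was at 0 in 3 day 2 libraries and at 0.0604 and 0.0691 FPKM in the other 2, and at 15.8, 28.1 and 28.1 FPKM at day 5. Cer1, a secreted inhibitor of Nodal, BMP and Wnt ligands, was at 0.178 ± 0.0844 FPKM at day 2 and at 100.4, 222 and 142 FPKM at day 5, a difference of 6.97 ± 0.29 (adjusted p = 2.35e-18). Each of these genes was lower in every day 2 library than in every day 5 library. Msgn1, a transcription factor of presomitic mesoderm, had 0 FPKM in all 5 libraries of day 2 and stood at 16.2, 19.7 and 33.4 FPKM at day 5. As it passed the filter only through day 5, its test adds no support.

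Some markers of the early streak rose less than these, did not pass or fell. Eomes, the T-box factor needed for mesoderm and endoderm to form, was at 2.74 to 3.62 FPKM at day 2 and at 8.30, 13.1 and 6.76 FPKM at day 5, a difference of 1.27 ± 0.20 (adjusted p = 3.81e-06). Its mean at day 4 was 50.6 ± 2.2 FPKM (n = 3), and the difference of day 5 from day 4 was -2.36 ± 0.23 (adjusted p = 1.67e-09). Wnt3, the ligand needed to form the streak, was at 8.34 ± 1.39 FPKM at day 2 and 5.25 ± 1.01 at day 5, a difference of -0.58 that did not reach the threshold of 1. Mesp1, a factor of cardiac mesoderm, was not tested, with at most 0.375 FPKM at day 2 and 0.339, 1.94 and 1.79 FPKM at day 5. Its relative Mesp2 had a difference of -0.60 and did not pass, but passed with a pseudocount of 0.1 (-1.82, adjusted p = 0.00449). Lefty2, an inhibitor of Nodal, was the 1 member that fell, from 83.0 ± 19 to 19 ± 9.18 FPKM. Pdgfra, the receptor of early mesoderm, counted here in a joint entry with a miRNA gene, stood at 0.186 and 1.32 FPKM and missed the threshold with a difference of 0.95, which was 1.09 and passed without day 5 replicate 2. With a pseudocount of 0.1 it was 2.30 and passed.

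**Figure D2:**
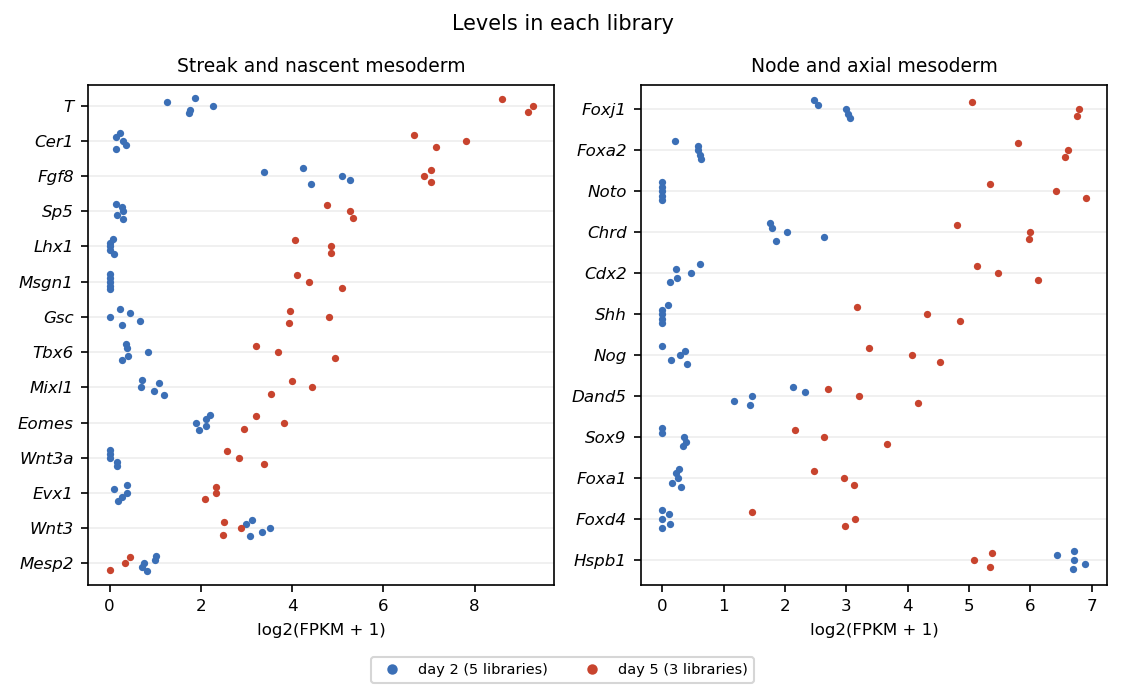
Levels of streak genes (left) and node genes (right) as log2(FPKM + 1), 1 point per library, in blue for the 5 day 2 libraries and in red for the 3 of day 5. T ran from 1.4 to 3.81 FPKM at day 2 and from 388 to 621 at day 5, and Wnt3, Mesp2 and Hspb1 had lower means at day 5.

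T, Sp5 and Msgn1 are known targets of Wnt signals, which act through factors of the Tcf and Lef family at the letters CTTTGAA or CTTTGAT, and Dkk1 encodes a secreted inhibitor that such signals induce. Windows from 250 bases before to 50 after the RefSeq start sites (build GRCm38.p6, which is not the build of the FPKM table) were searched for these letters on both strands. They stood in 8.65% of all 32851 windows. They stood in 4 of 18 windows (22.2%) of 11 Wnt target and feedback genes found in the table, those of Dkk1, Sp5, Sp8 and T. They stood in 4 of 14 windows (28.6%) of streak genes, 1 of 14 (7.14%) of caudal and paraxial genes and 2 of 11 (18.2%) of node genes, lists that share members. The 4 windows shown are those of T, Sp5 and Msgn1 of the streak list and of Dkk1, all far higher at day 5. They lie at chr17:8434173-8434472 (T, plus strand), chr2:70474673-70474972 (Sp5, plus strand), chr12:11208899-11209198 (Msgn1, minus strand) and chr19:30549447-30549746 (Dkk1, minus strand). Capitals mark the matches, which begin 235 bases before the start site of T, 104 before that of Sp5, 203 and 143 before that of Msgn1 and 117 before that of Dkk1. A match describes the letters and does not show that a factor binds there.
T: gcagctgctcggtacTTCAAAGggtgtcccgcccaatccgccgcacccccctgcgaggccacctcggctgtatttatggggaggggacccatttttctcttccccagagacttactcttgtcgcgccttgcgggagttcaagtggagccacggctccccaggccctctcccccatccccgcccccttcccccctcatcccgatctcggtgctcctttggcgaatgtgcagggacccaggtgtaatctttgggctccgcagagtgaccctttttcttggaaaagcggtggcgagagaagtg
Sp5: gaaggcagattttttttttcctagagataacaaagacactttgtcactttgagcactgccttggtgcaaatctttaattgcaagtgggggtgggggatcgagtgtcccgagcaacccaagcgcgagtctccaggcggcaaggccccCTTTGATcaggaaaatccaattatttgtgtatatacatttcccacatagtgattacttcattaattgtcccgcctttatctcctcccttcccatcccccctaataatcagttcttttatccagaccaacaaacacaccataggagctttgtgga
Msgn1: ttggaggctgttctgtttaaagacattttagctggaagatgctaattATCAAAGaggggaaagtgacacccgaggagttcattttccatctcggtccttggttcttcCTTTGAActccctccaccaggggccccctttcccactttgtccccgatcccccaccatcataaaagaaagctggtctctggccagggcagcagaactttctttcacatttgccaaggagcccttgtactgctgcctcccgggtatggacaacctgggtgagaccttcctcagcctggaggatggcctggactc
Dkk1: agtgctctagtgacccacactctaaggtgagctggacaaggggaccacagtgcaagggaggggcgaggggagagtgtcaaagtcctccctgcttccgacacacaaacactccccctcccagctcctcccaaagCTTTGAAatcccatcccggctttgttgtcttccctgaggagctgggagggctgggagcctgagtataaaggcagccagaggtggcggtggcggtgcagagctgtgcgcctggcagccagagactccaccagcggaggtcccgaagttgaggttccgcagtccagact

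Most Wnt target and feedback genes were higher at day 5, and so were several Wnt ligands. Of 17 targets listed, 16 were tested, 10 were higher and none was lower, with a median difference of 1.83. Axin2, the general feedback scaffold of the pathway, was at 3.15 ± 0.475 FPKM at day 2 and at 10.5, 10.8 and 15.0 FPKM at day 5, a difference of 1.65 ± 0.18 (adjusted p = 3.95e-09). Dkk1 was at 0.0712 to 0.154 FPKM at day 2 and at 24.6, 41.8 and 28.7 FPKM at day 5 (difference 4.87 ± 0.22). The feedback inhibitors Notum and Nkd1 and the receptor Lgr5 also rose, by 2.04, 2.01 and 2.66. The 6 members tested that did not pass included 2 of the factors themselves: Lef1 stood at 35.5 ± 6.76 and 18 ± 4.51 FPKM, and Tcf7 at 30.0 ± 4.46 and 16.2 ± 2.30. The differences of Lef1 and Tcf7 were -0.95 and -0.84, and that of Lef1 passed without day 2 replicate 2 (-1.05) and without day 5 replicate 3 (-1.13). In project A alone both passed, with -1.15 for Lef1 and -1.05 for Tcf7. Those of the feedback ligases and inhibitors Znrf3, Nkd2 and Apcdd1 were -0.68, -0.57 and -0.13, and that of the cyclin gene Ccnd1 was 0.27. Rnf43, a ligase that removes Wnt receptors, was not tested.

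Of 21 genes for Wnt ligands, receptors and secretion, 20 were tested, 10 were higher and 2 were lower, with a median of 1.18. Wnt3a and Wnt6 passed the filter only through day 5, so a call of either is not separate support. Wnt3a, the ligand of the caudal streak, was listed at 0 in 3 day 2 libraries and at 0.125 and 0.126 FPKM in the other 2, and at 4.99, 6.19 and 9.51 FPKM at day 5. Wnt8a was already present at day 2, at 17.4 ± 6.19 FPKM, and rose to 154 ± 8.39 (difference 3.16 ± 0.35). Rspo3, a secreted amplifier of Wnt signals, rose from 0.0983 ± 0.0928 to 40.4 ± 8.40 FPKM. Wls and Porcn, needed to secrete and to acylate Wnt proteins, rose by 3.21 and 2.37. The receptor gene Fzd7 fell from 57.0 ± 4.77 to 17.2 ± 2.03 FPKM, while that of Fzd2 rose from 13.7 ± 1.15 to 38.3 ± 2.11.

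Genes of the node and its derivatives were higher at day 5 in all but 1 of the members tested. Of 13 listed, 12 were tested, 11 were higher and 1, the heat shock gene Hspb1, was lower, with a median difference of 3.48. Noto, the homeobox gene of the node and notochord (chr6:85373880-85378871 in mm9), was listed at 0 in each day 2 library and at 39.4, 85.0 and 119 FPKM at day 5 (adjusted p = 9.37e-16). Foxa2, the forkhead factor of the anterior streak, node and endoderm, was at 0.158 to 0.543 FPKM at day 2 and at 54.4, 96.8 and 93.6 FPKM at day 5, a difference of 5.80 ± 0.35 (adjusted p = 9.68e-15). Shh, the signal that node and notochord send to the neural plate, was listed at 0 in 4 day 2 libraries and at 8.07, 18.9 and 27.9 FPKM at day 5. No library of one day reached the range of the other for these 3 genes.

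Foxj1, the factor that switches on motile cilia, had a level at day 2, 6.16 ± 1.37 FPKM, and was at 32.1, 109 and 107 FPKM at day 5 (difference 3.38 ± 0.43, adjusted p = 8.49e-08). Genes of cilia were noticed among the larger rises after their values were seen. Enkur, Cfap126 and Dynlrb2, which encode parts of motile cilia, reached 32.8 ± 15.5, 51.4 ± 21.6 and 30.3 ± 17.3 FPKM, and their day 2 means were 0.0295, 0.51 and 0 FPKM. Cfc1, the Nodal coreceptor Cryptic, was likewise seen after the fact, at 1.16 ± 0.546 and 52.9 ± 16.5 FPKM. The BMP antagonists Chrd and Nog rose from 3.14 ± 1.18 to 50.7 ± 20.5 FPKM and from 0.189 ± 0.135 to 15.7 ± 6.34 FPKM. Dand5, a Nodal antagonist at the rim of the node, rose from 2.41 ± 1.20 to 10.2 ± 6.01 FPKM. With project A alone, which has 1 day 5 library, its difference was 0.74 in place of 1.66 and did not pass (adjusted p = 0.0759).

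The day 5 libraries differed among themselves in these genes. All 11 node genes that rose were lowest in replicate 1, the library whose cell type field names another stage, while over all 1546 genes that rose 55.8% were lowest there. Noto was at 39.4 FPKM in that library and at 85.0 and 119 in the others. Without that library, 2756 genes passed in the whole comparison. Of the 15 caudal genes that rose, 12 were highest in replicate 3, against 44.8% of all genes that rose. Replicate 1 was also the only day 5 library of project A, so library, project and culture course cannot be told apart.

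**Figure D3:**
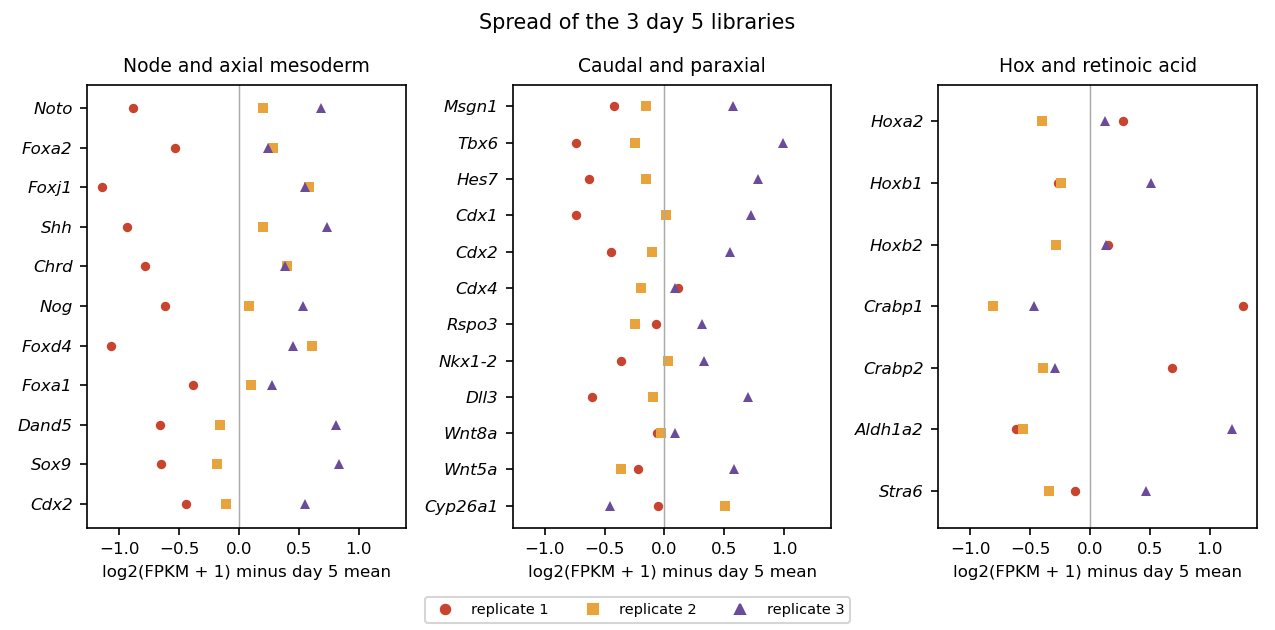
Deviation of each day 5 library from the day 5 mean of log2(FPKM + 1), for genes that rose, with circles for replicate 1, squares for replicate 2 and triangles for replicate 3. Replicate 1 lies lowest for each of the 11 node genes on the left and highest for Crabp1, at 851 FPKM against 200.3 and 254.

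Genes of the caudal epiblast and of paraxial mesoderm were higher at day 5. Of 17 listed and tested, 15 were higher and none was lower, with a median of 3.08. Msgn1 and Evx1, which are among the 15, passed the filter only through day 5, and their calls are not separate support. Cdx2, the caudal homeobox gene, was at 0.268 ± 0.183 FPKM at day 2 and at 34.2, 43.5 and 69.0 FPKM at day 5, a difference of 5.25 ± 0.24 (adjusted p = 2.04e-17). Its relatives Cdx1 and Cdx4 rose by 3.08 and 1.35, Cdx4 to 1.71 ± 0.31 FPKM only. Nkx1-2, which marks caudal progenitors of the neural tube and mesoderm, rose from 0.386 ± 0.231 to 47.8 ± 11.5 FPKM. Tbx6, the T-box factor that commits cells to paraxial mesoderm, was at 0.379 ± 0.236 FPKM at day 2 and at 8.23, 12.0 and 29.7 FPKM at day 5. The segmentation clock genes Hes7 and Dll3 rose by 4.08 and 1.47, while the Notch ligand gene Dll1 stood at 5.00 ± 1.49 and 7.25 ± 5.39 FPKM and did not pass (adjusted p = 0.30). Replicate 3, the highest library for Tbx6, held 13.4 FPKM of Dll1 against 3.58 and 4.73 in the others.

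Most of the endoderm genes tested were higher too, though several of them are on other lists as well. Of 17 listed, 15 were tested and 11 were higher, with none lower and a median of 2.35. Among those higher, Foxa2 and Foxa1 are also on the node list, Cer1 on the streak list and Gata4 on the cardiac list. Krt8 and Krt18 are also on the epithelial list. Sox17, the factor of definitive and extraembryonic endoderm, was at 0.189 ± 0.0883 FPKM at day 2 and at 10.3, 15.7 and 10.6 FPKM at day 5, a difference of 3.45 ± 0.14 (adjusted p = 1.91e-18). Gata6, Gata4 and Hhex, transcription factors of early endoderm, reached 4.53 ± 0.639, 4.56 ± 0.326 and 10.4 ± 1.98 FPKM. Cxcr4, a chemokine receptor of definitive endoderm and mesoderm, rose from 0.864 ± 0.159 to 12.7 ± 4.26 FPKM. Trh, the gene of thyrotropin-releasing hormone, rose from 27.3 ± 11.9 to 695 ± 90.5 FPKM, and stood at 2052 FPKM at day 4. Ttr was listed at 0 in all 8 libraries, Afp at 0 in the 3 of day 5, and Hnf4a was at most 0.065 FPKM in any. Apoa1, Prdm1 and Cldn6 did not pass (adjusted p from 0.0562 to 0.618), while with a pseudocount of 0.1 Apoa1 did (difference 1.35, adjusted p = 0.0382).

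Some genes of cardiac, lateral and blood lineages were higher, at low levels. Of 13 genes of cardiac, lateral and extraembryonic mesoderm, 11 were tested and 3 were higher, with a median of 0.09. These were Gata4, Isl1 and Kdr, of which Isl1 and Kdr reached 1.71 ± 0.152 and 1.15 ± 0.282 FPKM. The difference of Isl1, 1.04, fell to 0.99 without day 2 replicate 4 or 5 or day 5 replicate 2 and then did not pass. Nor did it pass with quantile normalization (0.91) or in project A alone (0.87). With quantile normalization the difference of Kdr was 0.96 and 1 of the 11 genes was higher in place of 3. Kdr also missed the threshold in project B alone (0.99). Tbx5 and Nkx2-5, factors of the heart, were at most 0.0782 and 0.136 FPKM at day 5. Of 11 blood and endothelial genes, 4 were higher and 1 was lower. Lmo2 rose from 1.82 ± 0.264 to 12.0 ± 0.586 FPKM and Etv2 from 3.05 ± 0.848 to 9.90 ± 2.59, while the endothelial adhesion gene Pecam1 fell from 6.05 ± 1.67 to 1.02 ± 0.354. The mean of Pecam1 was highest in the embryonic stem cells of day 0, at 26.1 ± 1.86 FPKM. Gata1, 1 of the 4, passed the filter only through day 5, so its call is not separate support. It reached 2.10 ± 0.918 FPKM, and the globin gene Hba-x was listed at 0 in each day 5 library. The summed level of the 11 blood and endothelial genes was 11.2 to 15.0 FPKM at day 2 and 26.9 to 30.9 at day 5. Of 11 extraembryonic endoderm genes tested, several of them shared with the endoderm list, 6 were higher. Of 5 trophoblast genes tested, 1 was higher and 1 lower, with a summed level of 7.95 to 11.9 FPKM at day 2 and 9.11 to 12.4 at day 5 over 9 genes. What part other cell types had in these results was not tested.

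Nodal and 7 other genes of its pathway were lower at day 5. Of 17 genes listed and tested, 8 were lower and 3 higher, with a median of -0.30. Nodal, the ligand, was at 55.2 to 63.1 FPKM at day 2 and at 14.6, 18.1 and 15.4 FPKM at day 5, a difference of -1.86 ± 0.29 (adjusted p = 2.24e-06). Its coreceptor gene Tdgf1 fell from 283 ± 26.7 to 99.5 ± 38.6 FPKM, and the related ligand gene Gdf3 fell by 3.21. The coreceptor gene Cfc1, described with the node and not on this list, rose by 4.63. The ligand gene Gdf1, in a joint entry with Cers1, fell by 1.23. The feedback inhibitors Lefty1 and Smad7 fell from 285 ± 66.3 to 32.3 ± 5.75 FPKM and from 13.8 ± 2.02 to 1.4 ± 0.27. Of the proteases that cut the Nodal precursor, Pcsk6 fell by 1.56 and Furin rose by 1.41. Smad3, a transducer, rose from 4.97 ± 0.789 to 14.3 ± 4.64 FPKM, and Cer1 was the third gene that rose. The transducer Smad2, the partner factor Foxh1, and the receptors Acvr1b, Acvr2a and Acvr2b did not pass, with differences from -0.27 to 0.41.

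Of 13 FGF ligand and receptor genes, 4 were higher and 2 lower. Fgf8, the ligand that streak cells need to migrate, was at 18, 9.50, 33.4, 37.3 and 20.4 FPKM at day 2 and at 130, 118 and 131 FPKM at day 5, a difference of 2.51 ± 0.42 (adjusted p = 6.13e-06). With project B alone the difference was 2.13 (adjusted p = 0.0506). Fgf17, Fgf3 and Fgf10 rose by 2.30, 1.79 and 2.09. Fgf4, the ligand of pluripotent cells, fell from 75.8 ± 8.29 to 6.73 ± 2.02 FPKM. Fgf5, a marker of EpiLC, was at 23.0 ± 4.94 and 32.1 ± 13.3 FPKM, with a difference of 0.42 that did not pass (adjusted p = 0.278). Of 13 feedback genes of the ERK kinases, 2 were higher and 1 was lower. These counts are near the shares over all genes tested, 10.6% higher and 7.76% lower. Spry2 and Il17rd rose by 1.58 and 2.53, and Etv5 fell by 1.79.

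BMP ligands, Id genes and antagonists were higher in 9 of the 17 members listed and tested, with 1 lower and a median of 1.62. Id1 and Id3, direct targets of BMP signals, rose from 2.19 ± 0.686 to 56.0 ± 8.85 FPKM and from 5.22 ± 1.07 to 116 ± 3.01. Bmp2, Bmp5 and Bmp7 reached 5.55 ± 2.49, 2.61 ± 0.321 and 15.1 ± 6.15 FPKM. Smad7, shared with the Nodal list, was the 1 member that fell. The antagonists Chrd and Nog, described with the node, are members too.

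Most of the general pluripotency genes were lower at day 5. Of 15 general pluripotency genes listed and tested, 9 were lower and none was higher, with a median of -1.56. Pou5f1, the gene of Oct4 (chr17:35642977-35647722 in mm9), was at 1097, 1062, 1107, 1150 and 1104 FPKM at day 2 and at 261, 444 and 262 FPKM at day 5, a difference of -1.82 ± 0.27 (adjusted p = 1.42e-06). Utf1, a chromatin protein of pluripotent cells and the first of the 10 largest falls, went from 517 ± 31.0 to 24.5 ± 6.09 FPKM (difference -4.37 ± 0.23). L1td1 fell from 239.8 ± 27.7 to 30.3 ± 7.85 FPKM, and Dppa2, Dppa4 and Dppa5a fell by 3.39, 3.21 and 3.26. Sox2 was at 29.9 ± 6.83 and 31.6 ± 1.52 FPKM, a difference of 0.10 ± 0.18. Lin28a, Lin28b and Sall4, like Sox2, did not pass. Zfp42, a zinc finger gene of naive cells, differed by -0.92, and passed without day 5 replicate 1 (-1.26) and in project B alone (-1.23).

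Nanog, the homeobox gene of naive cells and of the posterior epiblast, was at 15.0, 28.1, 22.6, 18.4 and 14.2 FPKM at day 2 and at 45.5, 40.4 and 19.8 FPKM at day 5. Replicate 3 of day 5 lay within the day 2 range, and the difference of 0.77 ± 0.27 stayed below the threshold (adjusted p = 0.017). Without that library it was 1.13 and passed (adjusted p = 0.00151), and in project A alone it was 1.06 and passed. At day 4 its mean was 183 FPKM, and day 5 was lower than day 4 by 2.41. Of 15 naive pluripotency genes, 1 was higher and 2 were lower, beside 10.6% and 7.76% of all genes tested. Gbx2, which naive cells and the later hindbrain border share, rose from 3.44 ± 1.5 to 36.8 ± 3.69 FPKM, and Fgf4 and Dppa3 fell.

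Of 16 genes of the formative and primed epiblast, 9 were lower and none was higher, with a median of -1.31. The DNA methyltransferase genes Dnmt3b, Dnmt3a and Dnmt3l fell from 546 ± 38.7 to 84.0 ± 14.1 FPKM, from 100.3 ± 18.3 to 22.7 ± 3.13 and from 141 ± 47.1 to 6.60 ± 2.18. Pou3f1 and Otx2, factors of the primed epiblast, fell by 2.22 and 1.30, and Foxd3 fell by 3.09. For Otx2 the day 2 libraries were at 48.8 to 62.5 FPKM and the day 5 libraries at 19.5, 30.2 and 17.8 FPKM.

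Genes of the germline were lower at day 5 in 10 of the 11 members listed and tested, with none higher and a median of -2.70. They encode proteins of meiosis and of the control of transposons. Mael, a factor of the piRNA pathway, was at 8.73 to 20.5 FPKM at day 2 and at 0.301, 0.453 and 0.738 FPKM at day 5, a difference of -3.43 ± 0.16 (adjusted p = 3.12e-17). Hormad1, a protein of meiotic chromosome axes, fell from 24.9 ± 9.43 to 0.892 ± 0.746 FPKM, Sohlh2 from 19.2 ± 5.25 to 0.754 ± 0.361 and Ddx4 from 9.22 ± 0.777 to 0.484 ± 0.213. Replicate 2 of day 2 was the lowest of its group for Mael, Hormad1 and Sohlh2. Of the 10 largest falls, Tex19.1, Taf7l and Rpl10l are also known from germ cells, and fell by 4.08, 4.07 and 3.99. Prdm1, a factor that sets germ cells apart, was the member that did not pass.

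The promoters of several such genes are known to hold the E-box letters CACGTG, which read the same on both strands. They stood in 7.15% of the 32851 windows and in 7 of 13 windows (53.8%) of the 10 germline genes found in the table, those of Ddx4, Hormad1, Mael, Stk31 and Sycp3. The windows of Hormad1 and Mael are shown as examples with a match, at chr3:95559427-95559726 (plus strand) and chr1:166238695-166238994 (minus strand). As with the Tcf and Lef letters, the build is not that of the FPKM table, and a match does not show that a factor binds there. Capitals mark the matches, which begin 57 and 20 bases before the start site of Hormad1 and 223 before that of Mael.
Hormad1: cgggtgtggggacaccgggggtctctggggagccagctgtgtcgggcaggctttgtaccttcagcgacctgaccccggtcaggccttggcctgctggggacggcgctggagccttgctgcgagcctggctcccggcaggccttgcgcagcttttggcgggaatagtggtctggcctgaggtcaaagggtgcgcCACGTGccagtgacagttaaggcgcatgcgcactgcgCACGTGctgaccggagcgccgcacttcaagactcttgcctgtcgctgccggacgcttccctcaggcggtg
Mael: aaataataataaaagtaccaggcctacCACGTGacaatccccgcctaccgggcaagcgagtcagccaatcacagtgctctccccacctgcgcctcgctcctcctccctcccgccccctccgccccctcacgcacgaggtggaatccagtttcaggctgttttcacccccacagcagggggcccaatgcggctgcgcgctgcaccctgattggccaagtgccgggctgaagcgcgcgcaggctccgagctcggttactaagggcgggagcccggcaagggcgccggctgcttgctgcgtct

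**Figure D4:**
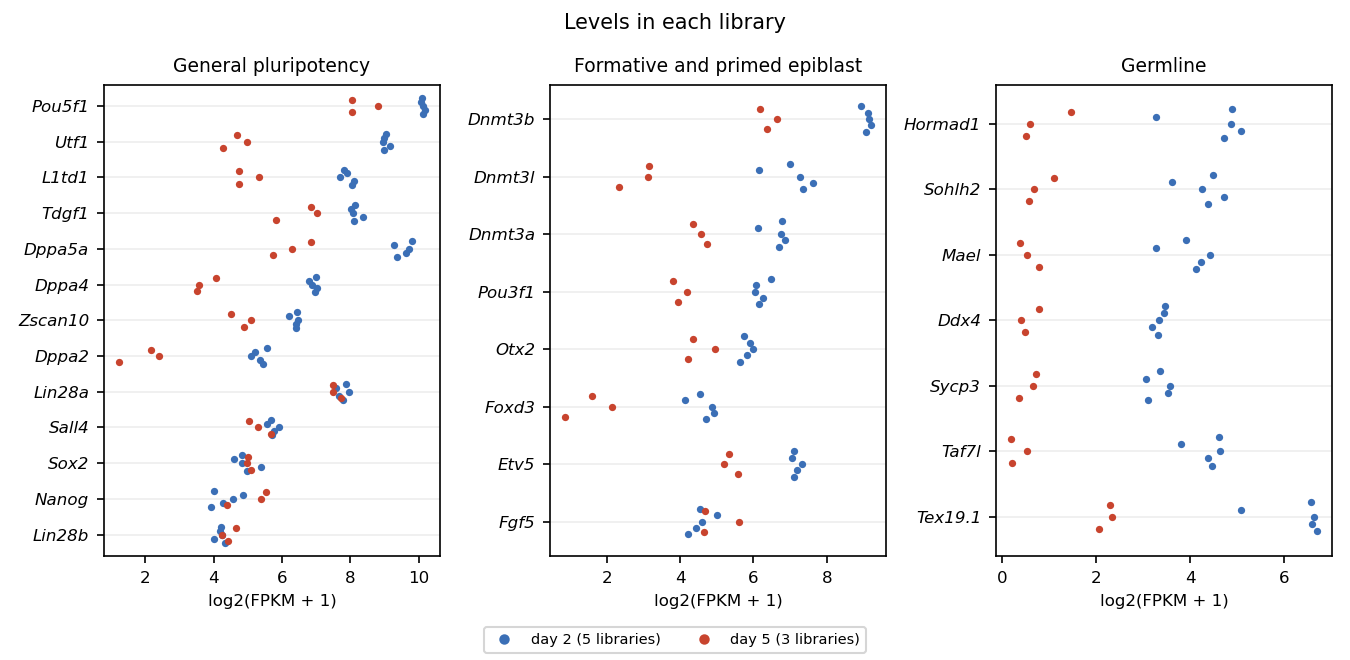
Levels of general pluripotency genes (left), formative and primed epiblast genes (middle) and germline genes (right) as log2(FPKM + 1), 1 point per library, in blue for day 2 and in red for day 5. Pou5f1 ran from 1062 to 1150 FPKM at day 2 and from 261 to 444 at day 5, while the points of Sox2, Nanog, Lin28a, Lin28b, Sall4 and Fgf5 overlap between the days.

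Adhesion genes changed in both directions. Of 14 epithelial genes, 7 were lower and 3 higher, with a median of -1.04. Cdh1, the gene of E-cadherin, was at 234 to 284 FPKM at day 2 and at 86.8, 125 and 148 FPKM at day 5, a difference of -1.13 ± 0.18. This fell short of the threshold with quantile normalization (-0.97), with project B alone (-0.94), without day 5 replicate 1 (-0.92) and without the libraries whose cell type field names another stage (-0.98). Epcam and the factor gene Grhl2 fell from 184 ± 13.9 to 65.7 ± 11.3 FPKM and from 15.4 ± 1.26 to 2.62 ± 0.353. The 3 that rose were keratin genes: Krt8 from 42.8 ± 7.55 to 500.5 ± 101 FPKM, Krt18 from 57.3 ± 3.70 to 267 ± 39.3 and Krt19 from 1.81 ± 0.753 to 50.4 ± 11.5.

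Of 16 genes of epithelial-mesenchymal transition and mesenchyme, 9 were higher and none was lower, with a median of 1.11. Cdh2, the gene of N-cadherin, was at 2.18, 2.06, 1.60, 1.76 and 1.79 FPKM at day 2 and at 41.3, 45.1 and 54.0 FPKM at day 5, a difference of 4.05 ± 0.16 (adjusted p = 6.72e-19). Vim, an intermediate filament gene, rose from 29.1 ± 5.42 to 195 ± 23.9 FPKM, and the repressor genes Zeb1 and Zeb2 reached 3.25 ± 0.88 and 5.74 ± 1.30 FPKM. Snai1, the repressor of Cdh1 in the streak, was at 3.93, 4.36 and 12.3 FPKM at day 5, with the first of these below the highest day 2 library, at 3.97. Its difference of 1.20 (adjusted p = 0.00236) was 0.74 without day 5 replicate 3 and then did not pass (adjusted p = 0.0675), nor did it in project A alone (0.61, adjusted p = 0.39). The fibroblast collagen gene Col1a2 was at 0.934 ± 0.136 and 2.46 ± 1.13 FPKM and did not pass (difference 0.78), but passed without day 5 replicate 2 (1.09), in project A alone (1.05) and with a pseudocount of 0.1 (1.19).

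Some neural progenitor genes were higher at day 5, as were most of the Hox and retinoic acid genes tested. Of 17 neural progenitor genes, 16 were tested, 7 were higher and none was lower, with a median of 0.65. Sox1, the first marker of neurectoderm, was at 0.905 to 2.61 FPKM at day 2 and at 16.1, 8.09 and 9.49 FPKM at day 5, a difference of 2.07 ± 0.24. Sox21 and Fabp7 rose by 2.54 and 4.96, to 8.29 ± 0.944 and 37.0 ± 3.91 FPKM. Pax6, a later neural gene, was at 0.47 ± 0.206 and 0.424 ± 0.119 FPKM. Of 12 neuronal genes, 2 were higher and 2 lower, beside 10.6% and 7.76% of all genes tested. The 2 lower were Neurod1, from 4.6 ± 0.65 to 0.265 ± 0.0369 FPKM, and Elavl3, from 3.23 ± 0.764 to 0.351 ± 0.0993. The summed level of the 17 neural progenitor genes was 53.8 to 68.6 FPKM at day 2 and 142 to 150.4 at day 5.

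Of 17 Hox and retinoic acid genes, 16 were tested, 13 were higher and none was lower, with a median of 2.16. Hoxb1, the first Hox gene of the streak and hindbrain, was at 0 to 0.648 FPKM at day 2 and at 28.0, 28.6 and 48.6 FPKM at day 5, a difference of 4.71 ± 0.23 (adjusted p = 1.02e-16). Hoxb2 rose by 4.83, and Hoxa2, listed at 0 in each day 2 library, was at 15.9, 9.51 and 14.1 FPKM. Cyp26a1, which degrades retinoic acid, rose from 0.0606 ± 0.0555 to 21.1 ± 7.44 FPKM. Aldh1a2, which makes it, was at 1.04 ± 0.429 FPKM at day 2 and at 3.65, 3.83 and 15.2 FPKM at day 5. The binding protein gene Crabp1 was at 22.1 to 26.1 FPKM at day 2 and at 851, 200.3 and 254 FPKM at day 5. Replicate 1 was the highest library for Crabp1 and Crabp2 and the lowest for Aldh1a2. Without replicate 1 the difference of Crabp2 was 0.92 in place of 1.26 and did not pass (adjusted p = 0.0621), nor did it in project B alone (0.81, adjusted p = 0.393).

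Other gene groups described the metabolism and growth of the cells. Of 20 genes of glycolysis and hypoxia, 3 were higher and 5 lower, with a median of -0.22. The glucose transporter genes Slc2a1 and Slc2a3 rose from 73.2 ± 11.4 to 403 ± 31.7 FPKM and from 22 ± 4.82 to 164 ± 13.6, and Vegfa rose by 1.54. The lactate exporter gene Slc16a3 and the kinase gene Hk1 fell by 2.08 and 1.48. Of 12 genes of cholesterol synthesis and uptake tested, 5 were lower and none was higher, among them Fdps, Lss and Insig1 with falls of 1.30 to 1.48. Of 12 p53 targets, 5 were lower and 1 was higher, and Mdm2 and Phlda3 fell by 1.53 and 1.88. Of 18 DNA replication genes 1 was lower, beside 7.76% of all genes tested. It was the licensing factor Cdt1, which fell from 77.8 ± 8.28 to 29.0 ± 3.79 FPKM. Rif1, a regulator of replication timing, stood at 61.0 ± 3.65 and 31.6 ± 4.15 FPKM and missed the threshold with a difference of -0.93, which was -1.02 and passed without day 5 replicate 1, and -1.03 in project B alone. Of 15 mitosis genes none passed in either direction in the limma test, while 2 had an unadjusted p under 0.05. The same number, 2, also had an adjusted p under 0.05, both lower at day 5, and missed the minimum difference of 1. The differences of the 15 ran from -0.84 to 0.25.

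Of 12 imprinted growth genes, 8 were higher and none was lower, with a median of 1.54. Nnat rose from 8.21 ± 2.04 to 218 ± 24.0 FPKM. Igf2, a fetal growth factor, was at 1.91 ± 0.253 FPKM at day 2 and at 13.1, 9.05 and 23.1 FPKM at day 5, and the neighbouring H19, in a joint entry with its miRNA, was at 9.20 ± 2.10 FPKM at day 2 and at 55.0, 31.7 and 86.8 FPKM at day 5. Both were lowest in replicate 2 and highest in replicate 3 of day 5. Mest, Peg3 and Grb10 rose by 1.54, 1.66 and 1.53.

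Beyond the lists, several of the largest rises were genes of secreted or surface proteins. Aplnr, the receptor of apelin and of the mesoderm signal Apela, was at 0 to 0.0515 FPKM at day 2 and at 78.4, 98.9 and 138 FPKM at day 5, a difference of 6.65 ± 0.18 (adjusted p = 8.28e-23). Gal, the gene of the neuropeptide galanin, rose from 0.946 ± 0.364 to 185 ± 44.7 FPKM. Spink1, a protease inhibitor gene, and Arg1, the gene of arginase, were listed at 0 in each day 2 library. At day 5 Spink1 was at 70.4, 95.0 and 101 FPKM and Arg1 at 64.3, 51.9 and 99.5 FPKM. Tmem176b rose from 0.38 ± 0.121 to 68.8 ± 2.79 FPKM, and Gm15284, listed at 0 at day 2, reached 40.7 to 45.0 FPKM. Among the falls, Snora78 is a small nucleolar RNA whose locus spans 157 bases, a length at which FPKM is unreliable, with 0, 0 and 12.7 FPKM at day 5. Its call was lost with project B alone (adjusted p = 0.144) and without the libraries whose cell type field names another stage (adjusted p = 0.125).

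Day 5 was set beside the day before it and the end of the course, in comparisons that share its 3 libraries. Against day 4 (n = 3), 1134 genes (7.77%) passed, 908 (6.22%) higher and 226 (1.55%) lower at day 5, and with quantile normalization the split was 716 and 381. Against day 7 (n = 5), 1738 genes (11.9%) passed, 775 (5.31%) higher and 963 (6.6%) lower at day 5. T was at 59.0 ± 36.0 FPKM at day 4, 528 ± 124 at day 5, 304 ± 102 at day 6 and 74.3 ± 21.4 at day 7. Day 5 was above day 4 by 3.32 (adjusted p = 1.73e-07) and above day 7 by 2.82 (adjusted p = 1.76e-07). Noto was at 0.645 FPKM at day 4 and 0.675 at day 7, and day 5 was higher than these by 5.53 and 5.55. Msgn1 was at 0.149 FPKM at day 4, had 0 FPKM throughout day 7, and was higher at day 5 than at day 4 by 4.35. Tbx6 was below 1 FPKM on average at both days, and day 5 was higher by 3.57 than day 4 and by 3.18 than day 7.

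Other members followed different courses. Wnt8a and Fgf8 were at 152 and 113 FPKM at day 4, and their differences of 0.04 and 0.17 from day 4 did not pass. Foxa2 was at 41.0 FPKM at day 4 and 59.5 at day 7, and neither difference from day 5 passed. Shh rose further, to 81.3 FPKM at day 7, where day 5 was lower by 2.16. Cdh2 stood at 4.44, 46.8 and 53.5 FPKM at days 4, 5 and 7, above day 4 at day 5 by 3.15 and without passing against day 7 (difference -0.19). Pou5f1 was at 1131 FPKM at day 4 and 36.3 at day 7, and day 5 was lower than day 4 by 1.85 and higher than day 7 by 3.14. Igf2 and H19 were at 140 and 1095 FPKM at day 7, and day 5 was lower by 3.17 and 4.27.

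**Figure D5:**
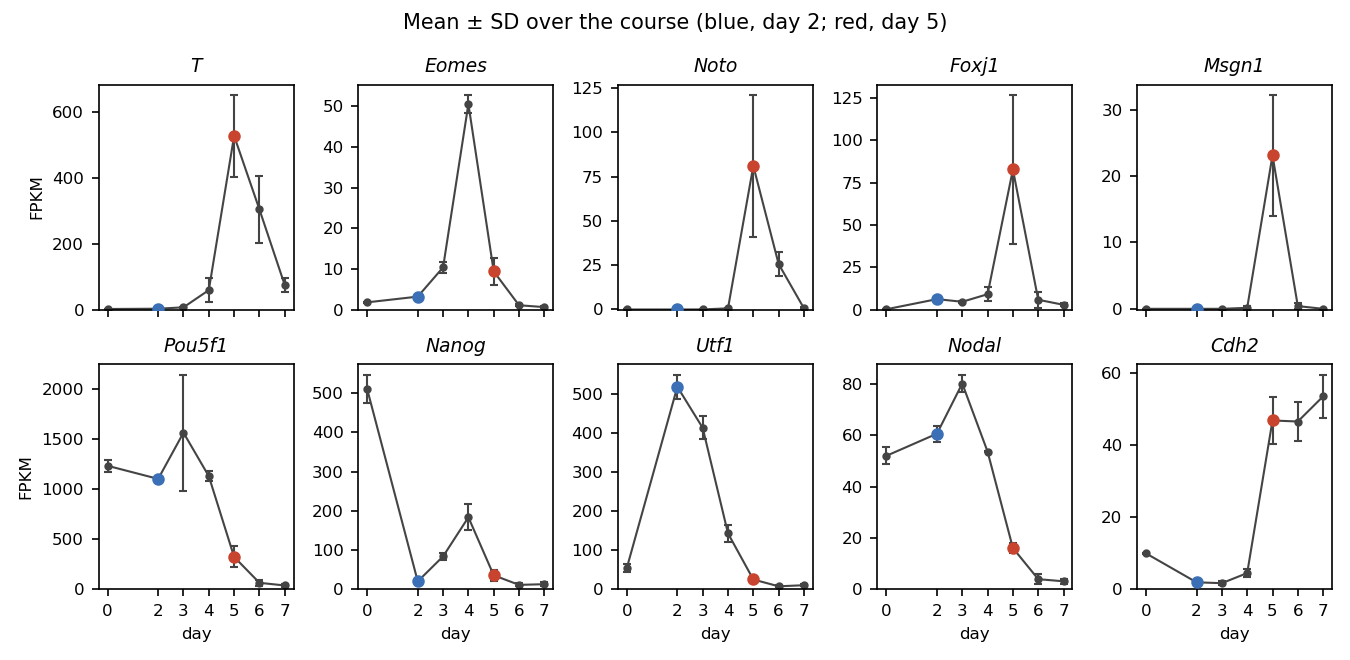
Mean ± SD of FPKM from day 0 to day 7 for 10 genes, with 3 libraries per day except 5 at days 2 and 7, and with day 2 in blue and day 5 in red. T, Noto, Foxj1 and Msgn1 have their highest mean at day 5, Eomes at day 4, and Nanog at day 0 with a second high value of 183 FPKM at day 4.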

How the data were processed

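The deposited values are FPKM per gene, which the authors computed on mm9; the submitters' processing notes name HISAT2 2.0.4, cutadapt 1.4.1, Cuffdiff and Cufflinks 2.2.1. The scaling between libraries and the sequencing depth were not given in the sources used here. Genes with at least 1 FPKM in 3 libraries were kept, 14595 of 24103 entries. On log2(FPKM + 1), a linear model with 9 group means over all 34 libraries was fitted with limma 3.58.1 in R 4.3.3 (empirical Bayes with a trend), after tests on simulated data. Reads of a joint entry cannot be split between its genes. The members and lists were chosen with earlier results of these data known.

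The genes named are the 10 largest rises and falls, the 5 list members lowest in adjusted p, for every list, all members of 6 lists and a short set of markers. Named outside that rule, after their values were seen, are Hes7, Dll1, Dll3, Wnt8a, Tbx5, Nkx2-5, Hba-x, Porcn, Fzd7, Bmp2, Crabp1, Crabp2, Aldh1a2, Slc16a3, Mest, Peg3, Enkur, Cfap126, Dynlrb2 and Cfc1. Alternatives covered the pseudocount, filter, scaling, libraries fitted, sequencing project, replicate block, minimum difference and leaving out each library. Some list members are counted but not reported here by name.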

Additional observations from a re-analysis of the deposited data

Results flagged for a closer look

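Among the 187 named genes tested, 20 had 1 day 2 library far from the other 4, by a gap of more than 0.71 of the whole range (Dixon's test). Chance alone flags about 1 in 20 groups of normally distributed values, a rate that does not hold for genes near 0. For Bmp5, Cdx4, Enkur, Hba-x, Shh and Tbx5 the other 4 libraries were at 0. The gap was then the whole range, so these flags were fixed in advance and the count of 20 cannot be set against that rate. The day 5 group, with 3 libraries, was not examined. Replicate 2 of day 2 was the library set apart in 8 of the 20 genes. It was low for germline genes, at 8.74 FPKM of Hormad1 (others 25.5 to 33.1), 32.8 of Tex19.1 (others 94.3 to 102.6) and 62.3 of Rpl10l (others 112.2 to 139.2). It was also low for Dnmt3a (68.4 FPKM), Zscan10 (72.1) and Nodal (55.2), and high for Bmp7 (1.74) and Dkk1 (0.154). The germline and methyltransferase genes fell without this library as well.

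Replicate 1 was low for Axin2 (2.32 FPKM) and Foxa2 (0.158), and was the library with a value above 0 for Shh (0.0670 FPKM) and the globin gene Hba-x (0.770). Replicate 3 was low for Cxcr4 (0.584 FPKM) and Furin (4.88), high for Tbx6 (0.795), and alone above 0 for Bmp5 (0.0692) and Enkur (0.147). Replicate 4 was low for Neurod1 (3.47 FPKM) and alone above 0 for Cdx4 (0.311) and Tbx5 (0.0413). Values this near 0 lie within a few read steps of 0.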

How the results depend on the processing

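The counts of genes that passed moved by more than 1.5 times under 2 of the settings tried. With a pseudocount of 0.1 in place of 1, they were 4261 (day 5 against day 2), 2856 (against day 7) and 2035 (against day 4). With no minimum difference they were 8228, 6944 and 4138. Leaving out each library in turn gave 2665 to 2756, 1614 to 1980 and 1004 to 1250 genes, and 186 to 193 list members. With quantile normalization the split against day 2 was 1357 higher and 1366 lower, and against day 4 716 and 381 in place of 908 and 226. Samples with the same number did not deviate together (r of -0.114 to 0.0883 by label number and -0.0939 to 0.0883 by culture course), so the numbers were not taken to pair them. With a replicate block by label number, 2677, 1747 and 1129 genes passed, and with a block by culture course 2737, 1729 and 1131. Of the 155 named genes that passed, 143 passed in every one of the 21 settings in which they were tested. Of the 32 that did not pass, 23 passed in none in which they were tested. With a minimum of 1 FPKM in 5 libraries, 6 of these genes were not tested. With the block by label number Isl1 did not pass (0.90) while Pdgfra (1.03) and Zfp42 (-1.02) did, and with the block by culture course Kdr did not (0.9986) while Lef1 did (-1.04). No named gene that passed in the main fit or in the alternative changed sign between them. Changes of sign in genes that passed in neither were not counted. Kdr fell just short with quantile normalization (0.96). With project A alone, which has 1 day 5 library, Dll3, Furin, Smad3 and Gata1 stood at 0.92, 0.79, 0.85 and 0.66, below the threshold. With all libraries the differences of Dll3, Furin and Gata1 were 1.47, 1.41 and 1.23. The cause of these shifts was not tested. Depth is unknown, so no limit can be set for a gene listed at 0.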
